A study of Mus musculus with 6 samples.

Results

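The p24 cargo receptor family, encoded by the Tmed genes, was examined in E0771 cells, a mouse breast carcinoma line, with and without knockdown of lamin A/C. The members were the 9 Tmed symbols present among the 10520 genes of the deposited count table, namely Tmed1, Tmed2, Tmed3, Tmed4, Tmed5, Tmed7, Tmed8, Tmed9 and Tmed10. The family was chosen by earlier results of these same libraries, in which Tmed7 stood among the most increased genes, so the differences of its members between the groups are given as a description and carry no p-value. RNA was taken from E0771 cells of C57BL/6 origin that had been stably transduced with lentivirus and selected in puromycin at 3 µg/ml. In 3 libraries the cells carried the control vector (shControl), and in 3 libraries they carried 1 shRNA construct against Lmna (shLmna, written shRNA4 in the sample titles). The control vector is listed in the methods as an empty pLKO.5-puro vector and not as an shRNA without a target. All 6 libraries thus shared the line, lentiviral delivery and the drug, and differed by an expressed shRNA as well as by its target. The methods do not list the backbone of the shLmna plasmid. The labels do not say that the libraries of a group came from separate cultures, so errors and p-values measure the spread between these samples, which may be technical.

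p24 proteins are single-pass membrane proteins that cycle between the endoplasmic reticulum and the Golgi apparatus. Their lumenal GOLD domain faces the cargo, and their short cytoplasmic tails bind the COPII coat on the way out of the endoplasmic reticulum and the COPI coat on the way back. They work as heteromers of members of the alpha, beta, gamma and delta subfamilies, and they are best known for loading glycosylphosphatidylinositol (GPI)-anchored proteins into COPII vesicles. Loss of one subunit often destabilises its partners at the protein level, which RNA counts do not show.

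MARS-seq reads the 3′ ends of polyadenylated RNA and tags each captured molecule with a unique molecular identifier (UMI). Totals ranged from 1846208 to 3242051 UMIs per library, and levels are given as UMIs, as counts normalised for library size, or as CPM (UMIs per 1000000 of the scaled library total). UMIs were counted over a window of the same length in every gene, so that normalised counts of different members can be set side by side, except where the annotated end and the end in use differ. The targeted gene came first as a check of the labels. Lmna, which encodes lamins A and C, gave 2066, 2794 and 1764 UMIs in the shControl libraries and 1035, 1023 and 713 in the shLmna libraries, a log2 fold change of -1.20 (SE 0.13, adjusted p = 3.55e-05, edgeR quasi-likelihood test with Benjamini-Hochberg adjustment). The groups did not overlap. The shControl libraries stood at plate positions 13 to 15 and the shLmna libraries at 16 to 18, and these positions cannot be told apart from the groups.

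One library of each group stood apart from the others of its group before any comparison was made. Transcripts of melanocytes, the pigment cells, were abundant in shControl replicate 3 and in shLmna replicate 2. The melanosome protein gene Pmel gave 450 and 499 UMIs in these libraries, Tyrp1 gave 428 and 461, Dct gave 271 and 306, and Mlana gave 205 and 316. In the other 4 libraries no gene of the melanocyte list exceeded 8 UMIs. The summed level of the 5 melanocyte markers in the table, out of 6 listed, was 737 CPM in shControl replicate 3 and 584 in shLmna replicate 2, and between 0.751 and 5.88 elsewhere. The study also used B16F10 melanoma cells, whose libraries were not analysed here, and the origin of these transcripts was not tested. Since both groups held 1 such library, results are also given without both of them, an alternative added after the values were seen.

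Of 10 epithelial markers listed, 4 were in the table (Cdh1 and Esr1, for example, were not). Krt8 ranged from 516 to 814 UMIs. Summed levels, mostly Krt8, were 264 to 323 CPM in shControl and 285 to 316 in shLmna. Epcam gave 34, 46 and 25 UMIs in shControl and 14, 32 and 8 in shLmna, groups that did not overlap once normalised, with a log2 fold change of -0.90 (SE 0.34) that was not called. The median over the 3 tested epithelial markers was -0.53. Endothelial markers were near 0, with 1 of 5 in the table, Pecam1, at 7 UMIs at most. Of the leukocyte markers 2 of 8 were in the table, with summed levels of 5.10 to 11.2 CPM in shControl and 13.8 to 16.9 in shLmna. Of the fibroblast and pericyte markers 5 of 6 were in the table, with summed levels of 19.7 to 22.7 in shControl and 42.4 to 52.7 in shLmna, where the collagen gene Col3a1 was at 0 UMIs in every shControl library. The summed leukocyte and fibroblast levels and Epcam moved with the group, at a low level, but not every marker did. Lyz2 was called higher in shLmna (46 UMIs pooled in shControl, 106 in shLmna), while Cd74 gave 18 and 7. Pdgfrb, Col3a1 and Acta2 were called higher, while Pdgfra gave 40 and 39 UMIs and Col1a1 overlapped between groups. The part of these markers in the results below was not tested. In bulk RNA, fewer cells of a type and less RNA per cell cannot be told apart.

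The 9 members differed widely in counted level (the plot of the members by library). Tmed9 and Tmed2 were the most abundant in both groups, followed by Tmed1 and Tmed3. By mean normalised count, the lowest in shControl were Tmed7, Tmed5 and Tmed8. The shControl mean of Tmed4 came from replicate 3 alone, and Tmed4 was at 0 in replicates 1 and 2. In shLmna, Tmed7 had moved into the range of Tmed1 and Tmed3. Mean normalised counts of Tmed1, Tmed3 and Tmed7 in shLmna were 157 ± 28.8, 161 ± 8.72 and 168 ± 11.1 (SD, n = 3), differences within their spread.

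**Figure D1:**
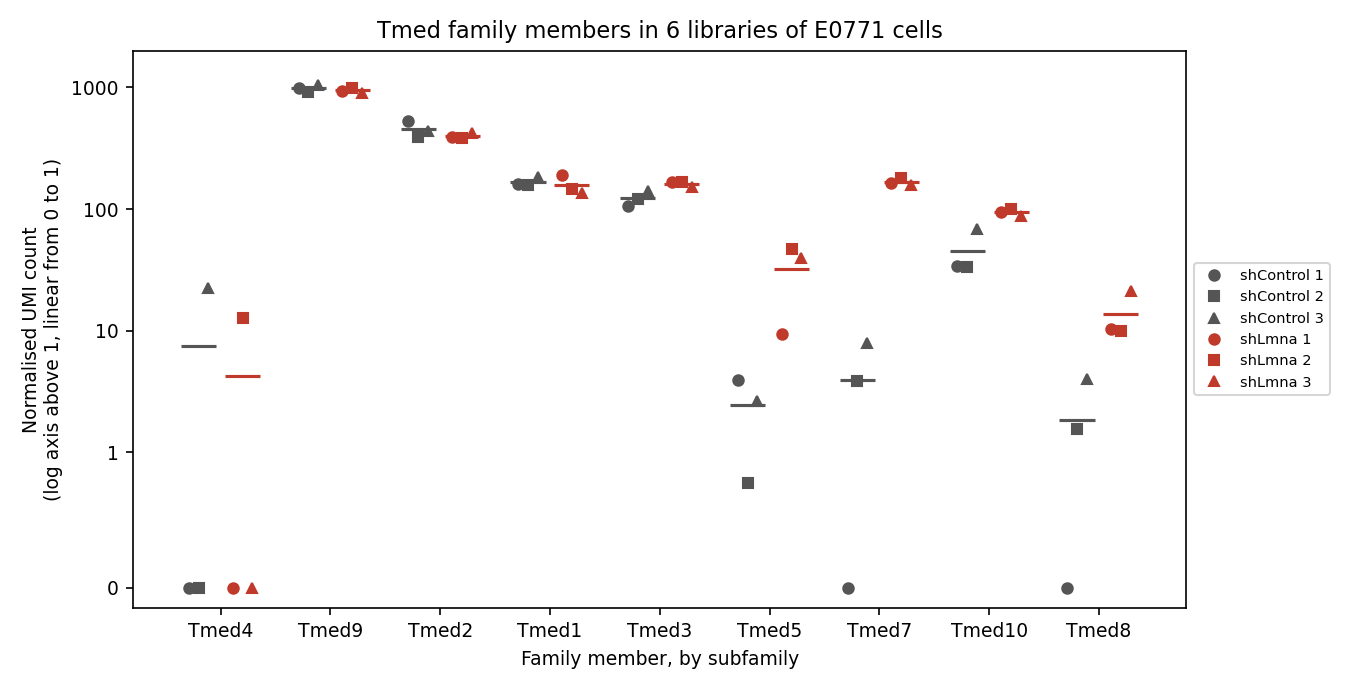
Normalised UMI counts of the 9 members in each library, with shControl in grey, shLmna in red, a marker shape for each replicate number and a horizontal line at each group's mean. The vertical axis is logarithmic above 1 and linear from 0 to 1. Tmed9, Tmed2 and Tmed1 overlap between groups, Tmed7 moves from a mean of 3.94 to 168, and Tmed4 has UMIs in 1 library of each group.

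Across the family, 7 of the 9 members passed the filter on low counts and 3 of these, Tmed7, Tmed8 and Tmed10, were called higher in shLmna at an adjusted p below 0.05 (edgeR), calls that are given as a description and not as a test of the family. The count called lower was 0, as by DESeq2 and limma-voom, and 0 lay lower at an unadjusted p below 0.05. Of all 8969 tested genes 7.96% were called higher and 5.78% lower, and these shares are given for scale only, since the family was selected on this contrast. The same 3 members also passed the stricter criteria of an absolute log2 fold change above 1 and a mean normalised count above 5, which 3.97% of tested genes passed in the higher direction. Every shLmna library lay above every shControl library for 5 of the 9 members, Tmed3, Tmed5, Tmed7, Tmed8 and Tmed10, and for 4 of the 7 tested, against 16.3% of tested genes. Tmed7 and Tmed8 had fewer than 10 UMIs in every shControl library and passed the filter through the shLmna libraries alone, so that members with low counts that were tested had to differ. The median log2 fold change of the 7 tested members was 0.41, that of all tested genes 0.0033, and the members' values ran from -0.18 to 5.50. Without shControl replicate 3 and shLmna replicate 2, again 7 members were tested and 3 were called higher, Tmed7, Tmed8 and Tmed10.

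In the alpha subfamily, Tmed9, which cycles through the early secretory pathway and is the most highly counted member here, gave 1007, 1176 and 789 UMIs in shControl and 1006, 1088 and 690 in shLmna. The normalised values were 984, 911 and 1047 against 941, 986 and 907, and the groups overlapped. The log2 fold change was -0.046 (SE 0.13, 95% confidence interval -0.32 to 0.23), which bounds the size of any change in these libraries. Tmed9 lies on chromosome 13 (GRCm38 chr13:55573732-55597697, forward strand).

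The other alpha member, Tmed4 (chr11:6270369-6274870, reverse strand), gave 17 UMIs in shControl replicate 3, 14 UMIs in shLmna replicate 2 and 0 in the other 4 libraries. These are the same libraries that held the melanocyte transcripts (the plot of melanocyte transcripts and Tmed4). Of the 10520 genes 27, counted after this pattern had been seen, had at least 10 UMIs in both of these libraries and at most 3 in each of the others, and Tmed4 stood among them beside Dct, Mlana, Tyrp1, Mitf, Sox10, Mc1r and Slc45a2, genes of the pigment cell lineage. A count of 0 allows a level of up to 0.925 to 1.62 CPM, depending on the library's depth, and covers counting error only. Tmed4 did not pass the filter, and in the fit without it the log2 fold change was -0.41 with a wide interval (SE 1.33, -3.27 to 2.45) and was not called. The RefSeq end that places its counted window lies 345 bases short of the GENCODE end, and the window runs 100 bases past the RefSeq end. UMIs from the outermost end may thus lie partly outside the window. Without the 2 libraries with melanocyte transcripts, Tmed4 was at 0 throughout.

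**Figure D2:**
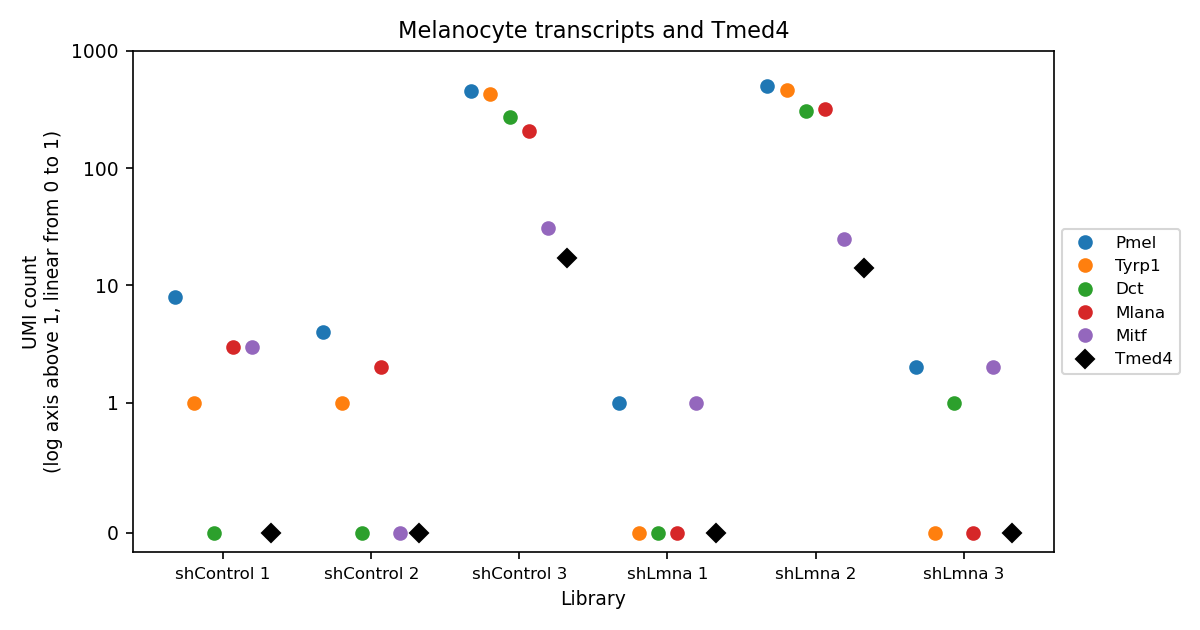
UMI counts of Pmel, Tyrp1, Dct, Mlana, Mitf and Tmed4 in each library, with a vertical axis that is logarithmic above 1 and linear from 0 to 1. Tmed4 (black diamonds) has 17 and 14 UMIs in shControl replicate 3 and shLmna replicate 2, where the melanocyte genes reach up to 499, and 0 UMIs in the other 4 libraries.

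Tmed2, the only beta subfamily member and a core partner of Tmed10 in p24 heteromers, gave 541, 506 and 329 UMIs in shControl and 417, 422 and 322 in shLmna. Normalised, these were 529, 392 and 436 against 390, 383 and 423. The groups overlapped, shControl replicate 1 was the highest library, and the log2 fold change was -0.18 (SE 0.15, interval -0.49 to 0.14). Tmed2 lies on chromosome 5 (chr5:124540695-124550506, forward strand).

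The gamma subfamily held Tmed7, with the largest difference of the tested members, beside members that were not called. Tmed1, which has been described as a partner of the interleukin 33 receptor ST2, gave 163, 203 and 137 UMIs in shControl and 203, 162 and 103 in shLmna. The normalised groups overlapped, at 166 ± 13.6 and 157 ± 28.8 (SD, n = 3), with a log2 fold change of -0.062 (SE 0.17, interval -0.42 to 0.30). Its sign was positive, at 0.054, without the 2 libraries with melanocyte transcripts. The window at the end of the GENCODE transcript of Tmed1 (chr9:21507553-21510252, reverse strand) overlaps Dnm2 on the opposite strand by 205 bases. The RefSeq end lies 175 bases further out, and whether the counting used strand is not given in the sources used here.

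Tmed3, a gamma member found in heteromers with the other subfamilies, gave 108, 156 and 107 UMIs in shControl and 178, 183 and 115 in shLmna. Normalised, the shControl libraries were at 106, 121 and 142 and the shLmna libraries at 167, 166 and 151. The groups did not overlap, but the difference was small, with a log2 fold change of 0.41 (SE 0.17, interval 0.054 to 0.76), and Tmed3 was not called. The value was 0.49 without the 2 libraries with melanocyte transcripts, and again not called. Tmed3 lies on chromosome 9 (chr9:89699206-89705068, reverse strand).

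Tmed5, a gamma member that takes part in the export of GPI-anchored proteins, gave 4, 1 and 2 UMIs in shControl and 10, 52 and 30 in shLmna. All 3 shLmna libraries lay above all shControl libraries, and shLmna replicate 1 was far below the other shLmna libraries, at a normalised count of 9.36 against 47.1 and 39.4. Pooled over libraries and scaled by their totals, the ratio of shLmna to shControl was 13.7 (exact 95% interval 6.41 to 35.1, for counting error only). The filter on low counts asked for 3.78 CPM, by unscaled totals, in 3 libraries, and shLmna replicate 1 had 3.69, so Tmed5 fell just under it and was not tested. In the fit without the filter its log2 fold change was 3.71 (SE 0.67, interval 2.28 to 5.15) and it was called. Tmed5 lies on chromosome 5 (chr5:108106366-108132620, reverse strand), where its GENCODE gene runs 15190 bases beyond the RefSeq end that places the counted window. RNA ending at that outermost end would lie outside the window.

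Tmed7, a gamma member reported to carry the receptor TLR4 to the cell surface, gave 0, 5 and 6 UMIs in shControl and 176, 199 and 121 in shLmna. Normalised, these were 0, 3.87 and 7.96 against 165, 180 and 159, and the lowest shLmna library lay far above the highest shControl library. The shLmna values were close to each other, with an SD of 11.1 on a mean of 168 (n = 3). The log2 fold change was 5.50 (SE 0.38, interval 4.68 to 6.32), and the pooled ratio was 47.2 (exact 95% interval 26.1 to 95.1). Among the shControl libraries the highest value was that of shControl replicate 3, and without the 2 libraries with melanocyte transcripts the log2 fold change was 6.16 (SE 0.42). Tmed7 lies on the reverse strand of chromosome 18 (chr18:46560235-46597535), next to Ticam2, which encodes an adaptor of TLR4 signalling. The GENCODE coding transcript of Tmed7 runs into Ticam2. The RefSeq end at 46585928, which places the counted window here, lies 25693 bases before the outermost coding end of Tmed7. No gene overlapped that window, and RNA ending at the outermost coding end would lie outside it. No other transcript shared at least 50 bases at 95% identity with the window. These checks used a GENCODE transcript annotated as a retained intron, which ends 11 bases from that RefSeq end.

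Tmed10 is the delta subfamily member and, with Tmed2, the core of p24 heteromers. It gave 35, 43 and 52 UMIs in shControl and 101, 110 and 67 in shLmna, or normalised counts of 34.2, 33.3 and 69.0 against 94.5, 99.7 and 88.1. The groups did not overlap, although shControl replicate 3 lay between the other shControl libraries and the shLmna libraries. The log2 fold change was 1.11 (SE 0.26, interval 0.56 to 1.65), and 1.44 (SE 0.25) without the 2 libraries with melanocyte transcripts. Without shControl replicate 2 the log2 fold change was 0.91 and the call was lost. The counted end of Tmed10 (chr12:85340614-85374847, reverse strand) lies 2174 bases beyond the end of its GENCODE coding transcript, so RNA ending at that nearer site would lie outside the window.

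Tmed8, a divergent member with a GOLD domain that falls outside the named subfamilies, was the least counted of the called members. It gave 0, 2 and 3 UMIs in shControl and 11, 11 and 16 in shLmna. The groups did not overlap, and the pooled ratio of 7.95 had a wide counting interval (3.12 to 25.9). The log2 fold change was 2.92 (SE 0.66, interval 1.51 to 4.34), and 3.95 (SE 0.79) without the 2 libraries with melanocyte transcripts. The call was lost without shControl replicate 2 (2.87) and without shLmna replicate 3 (2.54). Tmed8 lies on chromosome 12 (chr12:87166237-87200454, reverse strand), on the same chromosome as Tmed10.

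Tmed2 and Tmed10, which encode partners in the same complexes, gave different values, since Tmed10 was called higher and Tmed2 was not called, and the difference between these 2 changes was not tested.

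Since the large differences sat in members of low shControl counts, they changed the make-up of the family's counts more than their sum (the plot of the summed level). The summed level of the 9 members was 728, 650 and 767 CPM in shControl and 789, 815 and 772 in shLmna. The groups did not overlap, but shControl replicate 3 and shLmna replicate 3 were only a few units apart, and the ratio of the means was 1.11. Without Tmed7 the sums overlapped, with a ratio of 1.02. Tmed2 and Tmed9 together made up 80.4% ± 2.89 of the sum in shControl and 68.1% ± 0.930 in shLmna (SD, n = 3). The share of Tmed7 was 0.218% ± 0.209 in shControl and 8.51% ± 0.328 in shLmna, and that of Tmed10 2.52% ± 0.949 and 4.76% ± 0.17. The 7 members other than Tmed2 and Tmed9 summed to 140 ± 27.8 CPM in shControl and to 253 ± 13.8 in shLmna. These sums contain Tmed7 and the other members on which the family was selected, so they describe the libraries and are not a test. Sums and shares cover only RNA that ends in the counted windows. The outermost GENCODE coding ends of Tmed7, Tmed5 and Tmed10 lie 25693, 15190 and 2174 bases from the RefSeq ends. A shift between ends and a change in level cannot be told apart here.

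**Figure D3:**
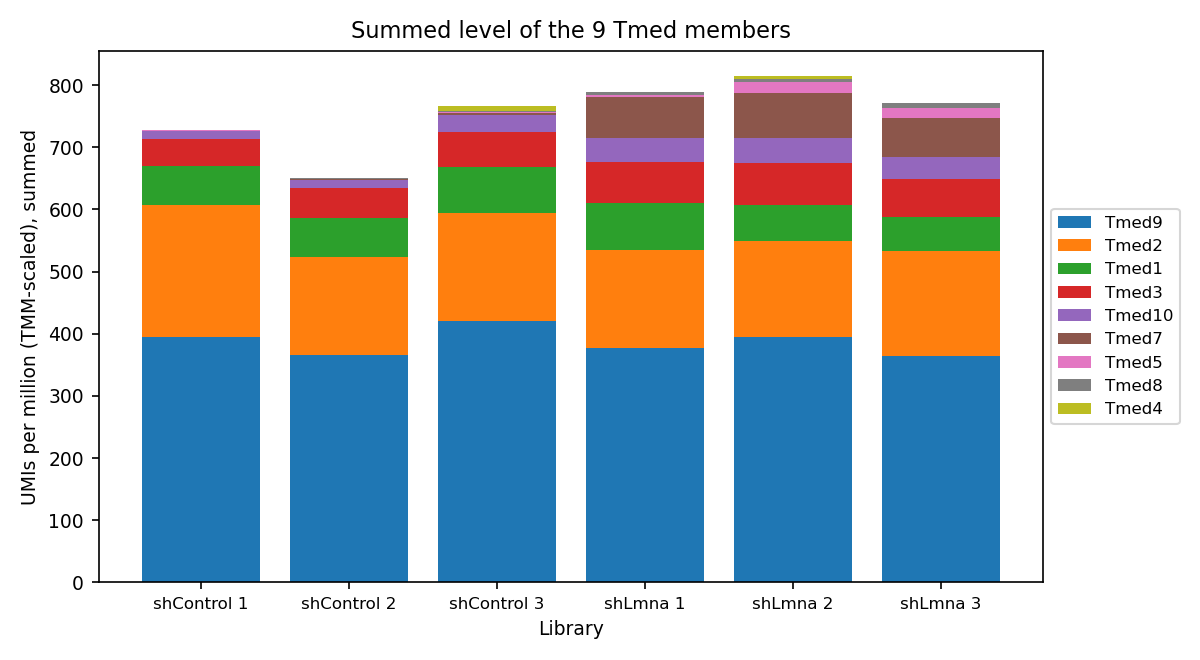
Stacked levels of the 9 members in each library, in CPM scaled by TMM factors, with a colour for each member. The stacks reach 650 to 767 in shControl and 772 to 815 in shLmna, and Tmed9 and Tmed2 fill most of each, while the Tmed7 layer is visible in the 3 shLmna libraries.

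The 5 members whose groups did not overlap were not alike in the base composition of the counted end, a feature that did not enter their choice (the plot of GC content). The GC content of the last 1000 transcript bases was 31.3% for Tmed7, 31.4% for Tmed5, 37.3% for Tmed8 and 39.5% for Tmed10. These are the 4 lowest values of the family, while Tmed3, whose groups did not overlap either, was among the highest. Tmed2 followed at 40.9%, Tmed4 at 42.9%, Tmed9 at 50.4%, Tmed3 at 52.0% and Tmed1 at 55.4%. The median over tested genes was 47.5%. The transcripts used for Tmed7 and Tmed10 are annotated as retained introns, with coding ends 25693 and 2174 bases away.

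Over the whole table, tested genes with AT-rich ends also tended to be higher in shLmna. Of the 472 genes with a GC content up to 35%, 24.4% were called higher and 1.48% lower, with a median log2 fold change of 0.43, while of the 1880 genes between 45% and 50%, 5.16% were called higher and 7.07% lower, with a median of -0.046. The part of base composition in the members' differences was not tested. In a fit with a correction for GC content in each library, the log2 fold changes were 4.80 for Tmed7, 2.65 for Tmed8 and 0.997 for Tmed10. All 3 were called there, and 2 of them, not Tmed10, passed the stricter criteria.

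The other end of the genes, the promoter, was described as well. Promoters from 250 bases before to 50 bases after the start were matched in RefSeq (GRCm38.p6) for 7 of the 9 members (not Tmed2 or Tmed7). Those of Tmed5, Tmed8 and Tmed10 are shown because these members had the largest log2 fold changes among the 7. Tmed3, also higher with groups apart, is described with the others. Capitals mark CCAAT, the core of the CCAAT box, and ACGTG, a core found in sites of stress and basic leucine zipper factors, on either strand. The 3 sequences run 5′ to 3′ on the reverse strand, at chr5:108132571-108132870 for Tmed5, chr12:87200180-87200479 for Tmed8 and chr12:85374668-85374967 for Tmed10.
Tmed5: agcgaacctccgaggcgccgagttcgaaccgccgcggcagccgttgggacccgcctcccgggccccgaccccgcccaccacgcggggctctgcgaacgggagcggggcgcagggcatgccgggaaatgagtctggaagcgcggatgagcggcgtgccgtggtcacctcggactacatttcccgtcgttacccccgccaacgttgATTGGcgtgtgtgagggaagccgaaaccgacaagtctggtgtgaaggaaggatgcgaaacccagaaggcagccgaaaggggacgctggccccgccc
Tmed8: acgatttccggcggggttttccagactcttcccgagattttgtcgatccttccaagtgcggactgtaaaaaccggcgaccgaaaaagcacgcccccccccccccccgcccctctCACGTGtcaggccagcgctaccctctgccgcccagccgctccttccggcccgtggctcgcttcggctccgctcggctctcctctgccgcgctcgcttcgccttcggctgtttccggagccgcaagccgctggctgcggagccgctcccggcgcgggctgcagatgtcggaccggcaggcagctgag
Tmed10: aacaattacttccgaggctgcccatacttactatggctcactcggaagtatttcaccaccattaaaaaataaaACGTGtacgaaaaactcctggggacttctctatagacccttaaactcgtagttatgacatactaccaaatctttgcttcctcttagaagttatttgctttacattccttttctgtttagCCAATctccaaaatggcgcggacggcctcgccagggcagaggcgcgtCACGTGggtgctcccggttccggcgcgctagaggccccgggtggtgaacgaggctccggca

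The promoters of Tmed5 and Tmed8 were GC-rich, at 68.3% and 68.7%, and that of Tmed10 stood at 49.7%, against a median of 52.7% over 32851 promoters of 300 bases. The AT-rich composition of the counted ends was thus not shared by the promoters of Tmed5 and Tmed8. Among the other matched members, promoter GC was 50.3% and 62.0% for Tmed1, 59.0% for Tmed3, 59.7% for Tmed4 and 58.3% for Tmed9. CCAAT was present in Tmed5 and Tmed10 and absent from the Tmed8 window, and 37.4% of all promoters held it. ACGTG was present in Tmed8 and Tmed10, and 19.6% of all promoters held it. In both, one match lay in the palindrome CACGTG, which reads as ACGTG on either strand, so that the matches overlap there. CACGTG, a word looked for after the sequences had been seen, was in none of the other 5 members with a matched promoter and in 7.15% of all promoters. The combined endoplasmic reticulum stress element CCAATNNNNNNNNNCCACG was in none of the members' promoters and in 0.119% of all promoters. Among the other members with a matched promoter, ACGTG was also found in Tmed3 and Tmed9, and CCAAT in Tmed1, Tmed4 and Tmed9, none of them called.

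Other genes of the early secretory pathway, in lists written with earlier results of these data known, were called in both directions. The lists held 113 genes of COPII and COPI coats, other cargo receptors, tethers, GPI-anchor enzymes and cargo, and endoplasmic reticulum chaperones, of which 95 were tested. In shLmna 6 were called higher (6.32%) and 6 lower (6.32%), close to the shares of all tested genes, and their median log2 fold change was -0.011. Without the 2 libraries with melanocyte transcripts 8 were called higher and 7 lower, of 97 tested.

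Among 14 tested genes of the COPII coat, 1 was called lower, the small GTPase Sar1a that starts coat assembly, with 600, 760 and 305 UMIs in shControl and 412, 337 and 303 in shLmna (log2 fold change -0.54, adjusted p = 0.0494 by edgeR). Its groups did not overlap once normalised. Among 17 genes of the COPI coat and Arf GTPases, 1 was called higher, Arf3, at 0.63 (SE 0.15). Of 15 other cargo receptors 1 was called lower, Kdelr3, a receptor that returns resident proteins of the endoplasmic reticulum, at -0.71 (SE 0.19). This call was lost after thinning and without shControl replicate 1 or 2 or any 1 of the shLmna libraries. Of 15 tethers, SNAREs and Golgi matrix genes 1 was called higher, Rab2a, a GTPase of traffic between the endoplasmic reticulum and the Golgi, with 112, 196 and 142 UMIs in shControl and 295, 378 and 219 in shLmna and a log2 fold change of 1.03 (SE 0.19). The counted end of Rab2a has a GC content of 38.7%. Those of the other pathway genes called higher ran from 45.3% (Ly6c1) to 51.9% (Ly6e). Sec24a of the COPII list, at 29.2%, was not called.

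The known cargo of the family, GPI-anchored proteins, was measured through 12 tested genes, out of 23 listed and 13 in the table. Of these 4 were called higher and 1 lower, beside 7.96% and 5.78% of all tested genes. The list was written with earlier results of these data known, so the shares are for scale only and are no test of the list. Ly6c1 and Ly6a, surface proteins of the Ly6 family, were higher by 1.91 (SE 0.22) and 1.89 (SE 0.29) on the log2 scale, and Gpc1, a glypican, by 0.74 (SE 0.17). Plaur, the urokinase receptor, was lower, with a log2 fold change of -0.88 (SE 0.14). Genes of the Ly6 family resemble each other in sequence, so their UMIs may be shared between them. Of 6 tested genes for attachment and remodelling of the GPI anchor 1 was called lower, the transamidase subunit Pigt, at -0.81 (SE 0.26, adjusted p = 0.0494 by edgeR).

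Of 16 tested chaperone and unfolded protein response genes 2 were called lower and 0 higher (edgeR), with 2 higher at an unadjusted p below 0.05. The 2 called lower were Ddit3, the stress factor CHOP, and Trib3, a target of CHOP. Ddit3 gave 430, 570 and 225 UMIs in shControl and 206, 192 and 112 in shLmna. The log2 fold changes of Ddit3 and Trib3 were -1.17 (SE 0.18) and -0.92 (SE 0.20). Hspa5, which encodes the main chaperone BiP of the endoplasmic reticulum and is named here outside the naming rule, was not called, at 0.14 (SE 0.23).

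The tested genes whose profile over the 6 libraries was most like that of Tmed7, by the root mean square difference of centred log2 levels, were Cd164 (0.484), Pum2 (0.659) and Gm364 (0.668). Cd164, a sialomucin of the cell surface, gave 6, 17 and 30 UMIs in shControl and 351, 401 and 219 in shLmna, with a log2 fold change of 4.19 (SE 0.35). Pum2, an RNA-binding repressor of translation, gave 2, 4 and 7 UMIs against 83, 128 and 81. As in Tmed7, shControl replicate 3 had the highest UMI count of the shControl libraries in all 3 genes. The genes were picked for likeness to Tmed7 over these same libraries, so this shared order follows from the choice and is no separate result. The GC content of their counted ends was 36.7%, 40.0% and 36.5%.

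The log2 values that the authors normalised and corrected with ComBat gave the same 5 members with non-overlapping groups, Tmed3, Tmed5, Tmed7, Tmed8 and Tmed10. On that scale Tmed7 was at 5.59, 5.84 and 5.96 in shControl and 7.68, 7.56 and 7.48 in shLmna, a difference of 1.78. Low counts are drawn towards each other there, since Tmed4 with 0 UMIs had a value of 5.40, and a difference of these values is smaller than a difference of the counts.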

How the data were processed

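RNA of 3 shControl and 3 shLmna libraries was measured by MARS-seq. The authors trimmed reads with cutadapt, mapped them to mm10 with STAR 2.4.2a and deposited UMI counts, taken with a modified HTSeq in a window around the 3′ end of each RefSeq gene (1000 bases inside and 100 beyond). Every listed gene has a highest count of at least 6. They also deposited log2 values, normalised with DESeq2 and corrected with ComBat for a batch they do not name, used here as a description only. A deposited table of the authors' own comparison (means, fold changes, p-values) was not used.

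The fit used edgeR 4.0.16 (R 4.3.3) with filterByExpr (minimum count 10), TMM scaling, quasi-likelihood test and Benjamini-Hochberg adjustment over 8969 genes, tested on simulated data. Normalised counts are UMIs divided by the TMM-scaled library size relative to the mean over libraries. Alternatives were DESeq2 1.42.0, limma-voom (limma 3.58.1), RLE and upper-quartile scaling, no filter, a mean count of at least 50, a replicate block, thinning, a GC correction (loess, span 0.3) and leaving out libraries. Totals of 1846208 to 3242051 UMIs set the precision. Window overlaps and GC content were taken at the end of the GENCODE transcript that ends nearest the RefSeq 3′ end. These ends differed by 175 bases in Tmed1 and by 345 in Tmed4. Locations and 3′ sequences came from GENCODE M21 (GRCm38), by the transcript ending nearest the RefSeq end, matched to 10467 of 10520 genes, 322 of them through an older symbol. Copies were searched with blastn 2.17.0 among transcripts, not in the genome.

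The members and gene lists were chosen with earlier results of these data known. Named genes were all members, Lmna, Ticam2 (not analysed here), up to 4 called genes of largest change per pathway list, and the 3 genes most like Tmed7.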

Additional observations from a re-analysis of the deposited data

How the results depend on the processing

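Tmed7 was called in all 17 alternatives, with log2 fold changes from 4.79 to 6.21. Tmed10 ranged from 0.91 to 1.47 and was called except without shControl replicate 2. Tmed8 ranged from 2.35 to 3.95 in 15 alternatives, and was not called without shControl replicate 2 or without shLmna replicate 3. It was not tested at a mean count of at least 50 or after thinning. Tmed5 was called in each alternative that tested it. These were the fit without the filter and those without shControl replicate 1, 2 or 3 or shLmna replicate 1. Tmed5 had at most 4 UMIs in any shControl library. In the fits that left out a library it passed the filter through shLmna alone, so it had to differ to be tested. Its calls there are a description only. Between 2 and 4 members were called higher and 0 lower in each alternative. Tmed1 changed sign, to 0.028 without shLmna replicate 3 and to 0.054 without both libraries with melanocyte transcripts, never called, and was lowest at -0.23 without shLmna replicate 1.

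A mean count of at least 50 left 425 genes called higher and 112 by the stricter rule, with fewer genes tested. Leaving out 1 library gave 353 to 882 genes called higher, 187 to 698 lower and 254 to 462 by the stricter rule, and 4 to 10 pathway genes higher and 3 to 8 lower. The cause was not tested. The COPII list had 0 to 3 genes called lower over the alternatives, the list for GPI anchor attachment 0 to 1, and the list of other cargo receptors 0 to 1, so the calls of Sar1a, Pigt and Kdelr3 depend on the setting.

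Replicate numbers are shared by both groups, but the deviations of same-numbered libraries correlated at 0.35, -0.11 and 0.0052, not all above 0.1, so the numbers were not taken as pairs. In the deposited ComBat values, whose batch is not named, they correlated at -0.57, -0.82 and -0.82. With the replicate block, Tmed7 was at 5.52, Tmed8 at 2.91 and Tmed10 at 1.14, all called, and with the block and the GC correction at 4.79, 2.67 and 1.01. Depth limits Tmed4, Tmed5 and Tmed8, with few UMIs in most libraries.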
